A study of Rattus norvegicus with 8 samples.

Results

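Polyamine synthesis and breakdown was followed through 10 genes in scrapings of the distal colon mucosa of rats. The genes were chosen by name from the known pathway, not by their values, though earlier results of these data were known. They are 10 of the 14217 genes that the platform annotation names singly, and stand for 14 of the 31099 probe sets on the arrays. Each of these probe sets has a single symbol in the platform annotation, and another that names Smox beside a second gene was left out. The brightest probe set of a gene, by its mean over all 8 arrays, leads its account, and the others are given beside it. Of the 14 probe sets, 13 lay in the upper 60% of probe sets by mean level and were tested, the dim 1 belonging to Azin1, so all 10 genes had a test.

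The quercetin group consisted of 4 samples from rats given 10 g of quercetin, a plant flavonol, per kg of diet for 11 weeks. The control group consisted of 4 samples from rats kept for the same 11 weeks without it, on a standard breeder diet (RM3 [E] FG SQC). Total RNA of whole scrapings was hybridised, so epithelium, stroma and immune cells were measured together, and fewer cells of a type cannot be told apart from less RNA per cell. The sources used here give neither strain, sex nor age. They also do not state that each sample came from a separate rat, so a p-value covers only how far these samples spread, which may be technical.

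Polyamines are small cations that every dividing cell makes, and the colon also meets polyamines of food and of its bacteria. Odc1, ornithine decarboxylase, makes putrescine, and Amd1, S-adenosylmethionine decarboxylase, supplies the aminopropyl groups that spermidine synthase (Srm) and spermine synthase (Sms) add to it. The antizymes Oaz1 and Oaz2 bind ornithine decarboxylase protein and deliver it to the proteasome, and Azin1, the antizyme inhibitor, captures antizyme and frees the enzyme. Sat1 acetylates spermidine and spermine, Paox oxidises the acetylated forms, and Smox oxidises spermine directly. Much of this control acts on translation and protein stability, which an RNA array does not measure.

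The windows around the transcription starts of 4 of the genes are shown because Odc1 and Srm are textbook targets of Myc, whose signal is given further on, because Oaz1 had the smallest log2 fold change, and because Amd1 had the smallest p. The sequences are those of RefSeq, assembly GRCr8, and run 5′ to 3′ on the strand of the gene, 250 bases before the start to 50 after it. They lie at chr6:46058415-46058714 on the plus strand for Odc1, chr5:164308752-164309051 on the plus strand for Srm, chr7:9536941-9537240 on the minus strand for Oaz1 and chr20:45265933-45266232 on the minus strand for Amd1. Capitals mark the E-box CACGTG, the word bound by Myc with Max, and the GC box GGGCGG or its reverse complement CCGCCC.
Odc1: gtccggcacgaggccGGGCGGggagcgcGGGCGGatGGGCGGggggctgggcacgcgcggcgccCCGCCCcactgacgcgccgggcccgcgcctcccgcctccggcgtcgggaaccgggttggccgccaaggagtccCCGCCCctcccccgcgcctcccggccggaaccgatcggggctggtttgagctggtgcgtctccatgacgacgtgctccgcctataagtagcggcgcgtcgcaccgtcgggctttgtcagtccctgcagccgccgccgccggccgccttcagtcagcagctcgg
Srm: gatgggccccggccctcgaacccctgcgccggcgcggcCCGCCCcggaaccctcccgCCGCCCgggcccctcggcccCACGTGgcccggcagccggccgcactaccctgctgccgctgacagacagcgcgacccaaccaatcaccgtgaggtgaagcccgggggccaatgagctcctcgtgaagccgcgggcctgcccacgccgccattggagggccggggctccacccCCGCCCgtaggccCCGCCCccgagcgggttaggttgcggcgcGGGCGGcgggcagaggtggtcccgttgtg
Oaz1: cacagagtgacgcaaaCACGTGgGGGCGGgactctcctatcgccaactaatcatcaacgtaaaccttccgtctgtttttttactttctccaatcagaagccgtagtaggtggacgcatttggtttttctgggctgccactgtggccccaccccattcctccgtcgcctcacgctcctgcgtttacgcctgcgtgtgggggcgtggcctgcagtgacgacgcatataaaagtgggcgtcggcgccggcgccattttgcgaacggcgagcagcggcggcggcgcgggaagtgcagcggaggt
Amd1: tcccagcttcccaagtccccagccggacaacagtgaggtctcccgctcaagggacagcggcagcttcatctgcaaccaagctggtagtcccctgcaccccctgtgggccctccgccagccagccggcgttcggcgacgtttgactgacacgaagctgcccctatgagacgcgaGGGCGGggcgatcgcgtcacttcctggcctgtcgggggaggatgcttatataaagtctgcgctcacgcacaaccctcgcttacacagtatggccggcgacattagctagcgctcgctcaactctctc
Of the 10 genes, 9 had such a window in the table, all but Azin1. The E-box stood in 2 of the 9, those of Srm and Oaz1, against 6.42% of all 33469 windows. The GC box stood in 8 of the 9, all but Smox, against 33.1% of all windows, and words of the GC box can overlap each other. The G and C content of the 9 windows ran from 53% (Smox) to 77.7% (Srm). Both background shares were taken over all windows, not over windows of like G and C content, so they show no enrichment. Searching both strands for these letters describes the windows and shows no binding. Sequence outside the windows was not searched, so a gene without the E-box here may have one elsewhere.

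The tissue label was checked first. All 13 markers of colon epithelium, among them Cdx2, Muc2, Slc26a3 and Car1, were in the tested range, and the lowest signal of any of them on any array was 227. Control arrays 1 and 2 stood apart from the rest. The ratio of 3' to 5' signal of GAPDH, which rises with shortened RNA, was 1.91 to 2.36 on the quercetin arrays, against 3.79 on control array 2 and 1.58 to 2.15 on the other control arrays. The same ratio of beta-actin was higher on every array, at 6.79 to 9.12 on the quercetin arrays and 8.65 to 21.4 on the control arrays. All arrays thus had more 3' than 5' signal of both genes. Control array 1 was low in markers of proliferating cells, which are taken up below beside Srm. Of 10 lists of cell type markers, 0 genes passed the limma threshold adjusted over all probe sets. An unadjusted p under 0.05 was reached by 10.8% of all tested probe sets. At that level the proliferation list had 5 of 15 tested genes, all 5 with higher means in the quercetin group. Absorptive colonocytes had 2 of 11 and goblet cells 1 of 8. Colon epithelium had 0 of 13, smooth muscle 0 of 6, and macrophages and dendritic cells 0 of 5. T cells, B and plasma cells, and fibroblasts had 0 of 3 each, and blood cells 0 of 1. Most immune, fibroblast and blood markers lay below the level filter or had no probe set, so these lists check little. By limma without the filter, 8.63% of all probe sets had an unadjusted p under 0.05. Of the markers below the filter, Ms4a1 and C1qc had higher and Itgax, Cd3e and Alas2 lower means at that level, and the rest did not reach it. Their signals were low, with group means from 3.71 (Itgax, quercetin) to 47.1 (C1qc, quercetin), so no change of a cell type is read from them.

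None of the polyamine genes differed between the diets by the test across the array. Values were taken as log2(signal + 16) and compared by limma over 18625 probe sets, with a Benjamini-Hochberg adjusted threshold of 0.05. Of the 10 genes 0 passed, as did 0.0107% of all tested probe sets. An unadjusted p under 0.05 was reached by 2 of the 10, Amd1 and Sat1. By comparison, 10.8% of all probe sets reached it, as did 9.39% of the 10266 tested genes by their brightest probe set. Amd1 and Sat1 had lower means in the quercetin group, as did 5.71% of all probe sets at that level and 342 of the 10266 genes. With so few genes, 2 of 10 cannot be set apart from the background. The quercetin and control samples overlapped in all 10 genes, while 6.39% of all tested probe sets, and 600 of the 10266 genes, had no overlap. Across the 10 genes 4 log2 fold changes, quercetin minus control, were above 0 and 6 below. Their median was -0.02, against 0.01 over all tested probe sets and 0.04 over the 10266 genes. Their median size without sign was 0.17, against 0.19 over the probe sets and 0.17 over the 10266 genes.

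**Figure D1:**
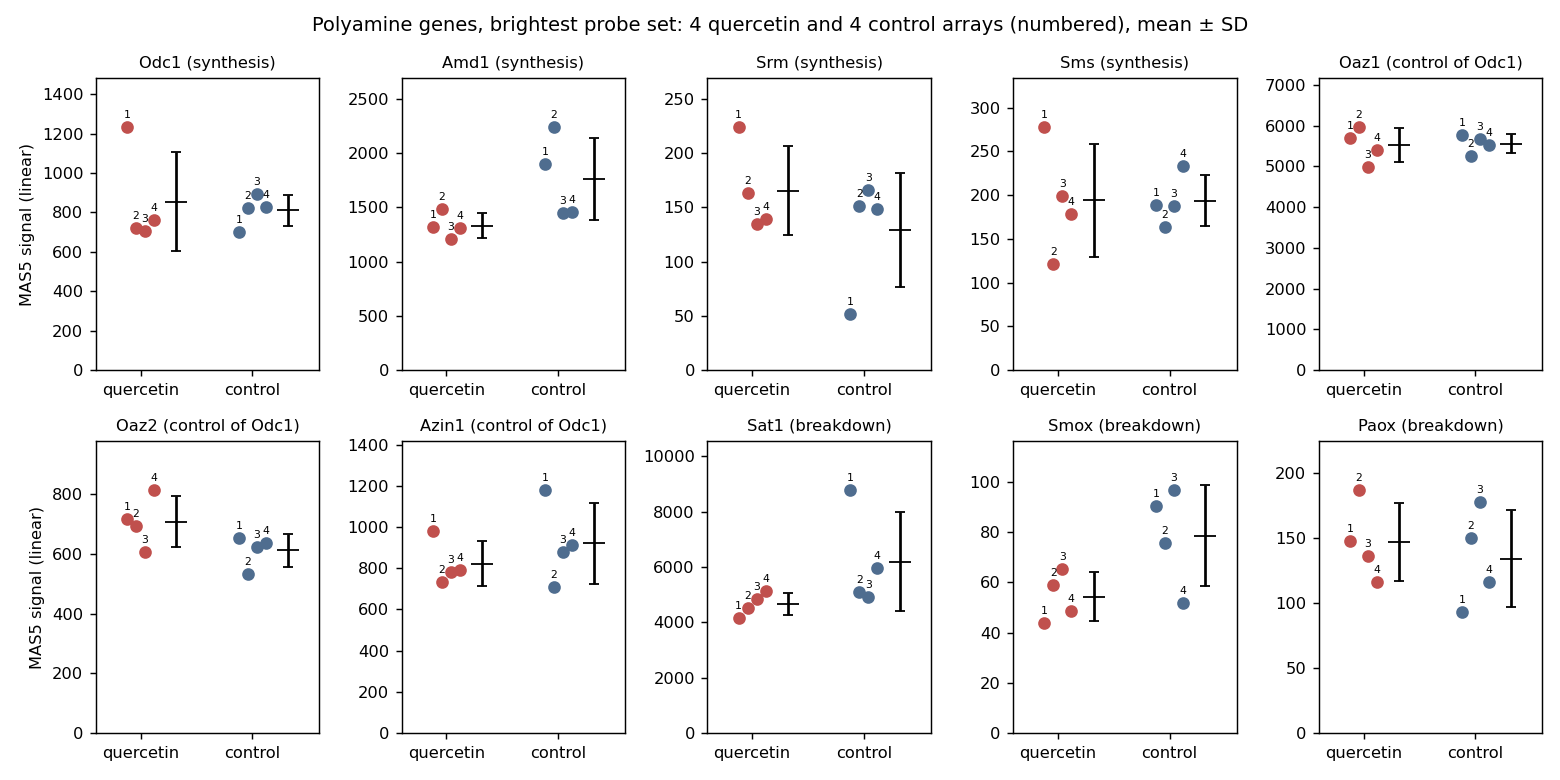
MAS5 signal (linear, arbitrary units) of the brightest probe set of each of the 10 genes on the 4 quercetin arrays (red) and the 4 control arrays (blue), with array numbers and the mean ± SD of each group beside the points. The groups overlap in every panel, and control array 1 is the lowest point of its group for Srm and Paox and the highest for Sat1 and Azin1.

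The synthesis enzymes showed no common direction. Odc1, the first enzyme of the route, had signals of 1233, 721, 706 and 759.8 on quercetin arrays 1 to 4, against 703, 823, 891 and 828 on control arrays 1 to 4. Quercetin array 1 stood high and the other 3 lay within the control range. The mean signal of Odc1 was 855 ± 253 in the quercetin group and 811 ± 78.6 in the control group (SD, n = 4 each). Its log2 fold change was 0.04 (SE 0.178, limma adjusted p = 0.961), and the 95% interval ran from 0.787 to 1.34 times the control level on the log2(signal + 16) scale. Without quercetin array 1 the sign turned, with a log2 fold change of -0.15.

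Amd1 had the smallest p of the group. Its signal was 1319.8, 1486, 1211 and 1309.7 on the quercetin arrays, against 1899, 2238, 1448 and 1458 on the control arrays. Control arrays 1 and 2 were high. The other 2 controls lay below quercetin array 2 and above the other 3 quercetin arrays, so the overlap rests on quercetin array 2. The log2 fold change of Amd1 was -0.38 (SE 0.156, unadjusted p = 0.0305, limma adjusted p = 0.411), with an interval of 0.609 to 0.972 times the control level. Without control arrays 1 and 2, the arrays that stood apart, it was -0.13. With 1 array left out in turn it ranged from -0.46 to -0.26, and without quercetin array 2 it was -0.43. With the 3' to 5' ratio of GAPDH as a covariate it was -0.35, and with that of beta-actin it was -0.20. The beta-actin ratio was 6.79 to 9.12 on the quercetin arrays, and 8.65, 21.4, 10.2 and 12.4 on control arrays 1 to 4. It thus went partly with diet, and that fit cannot fully separate the 2.

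Srm, spermidine synthase, had signals of 224, 163, 135 and 139.5 on the quercetin arrays and of 51.4, 151, 166 and 148 on the control arrays. Control array 1 was far below the other 7, which lay between 135 and 224. Srm had a log2 fold change of 0.40 (SE 0.297, limma adjusted p = 0.673), and it was 0.06 without control array 1 and 0.25 without quercetin array 1. Markers of proliferating cells moved with this array. All 15 tested markers of 16 listed had higher means in the quercetin group, their summed signal ran from 5354 to 8482 on the quercetin arrays and from 2404 to 6037 on the control arrays, and the lowest sum was on control array 1. None was at 0 on any array, the lowest single value being 5.57. The part of the proliferation markers, or of the other markers in which control array 1 differed, in the level of Srm was not tested.

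Sms, spermine synthase, gave unlike values on its 2 probe sets. The brighter had 278, 122, 199 and 179 on the quercetin arrays, against 188, 164, 188 and 233 on the control arrays, with a log2 fold change of -0.04 (SE 0.221, limma adjusted p = 0.973). The other probe set had 99.8, 125, 111 and 115 on the quercetin arrays, against 112, 129.9, 172 and 212 on the control arrays, and a log2 fold change of -0.39 (SE 0.207, limma adjusted p = 0.530). Over the 8 arrays the 2 probe sets had a correlation of 0.05, so a single level for Sms cannot be read from them.

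**Figure D2:**
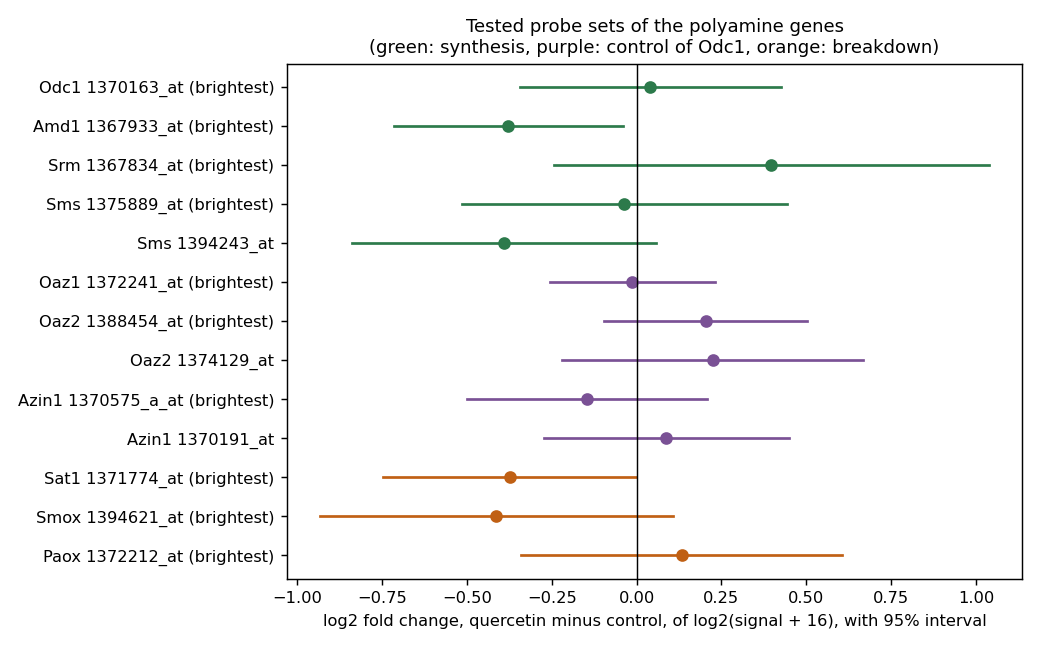
Log2 fold change, quercetin minus control, of log2(signal + 16), with its 95% interval from limma for the 13 tested probe sets of the polyamine genes. The intervals of Amd1 and Sat1 lie just below 0 before adjustment, the other 11 span 0, and the 2 probe sets of Sms differ.

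Of the genes that control ornithine decarboxylase, both antizymes had small standard errors. Oaz1, the general antizyme, had signals of 5690.1, 5962, 4990.4 and 5411 on the quercetin arrays, against 5778, 5243, 5668 and 5519 on the control arrays. Its log2 fold change was -0.01 (SE 0.113, limma adjusted p = 0.983). The interval, 0.838 to 1.17 times the control level, was the narrowest of the 10 genes. Oaz2, a second antizyme, had 719, 694, 608 and 816 on the quercetin arrays, against 654, 533, 624 and 637 on the control arrays, so that 3 quercetin arrays lay above every control array and 1 did not. The fold change of Oaz2 was 0.20 on the log2 scale (SE 0.138, limma adjusted p = 0.638), or 0.13 without quercetin array 4, and its dimmer probe set had 0.22. These 2 probe sets followed each other over the 8 arrays with a correlation of 0.92.

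Azin1, which opposes the antizymes, had signals of 980.5, 731, 783 and 791 on the quercetin arrays, against 1180.4, 709, 878 and 912 on the control arrays. The highest value of each group was on its array 1. The log2 fold change was -0.15 (SE 0.164, limma adjusted p = 0.794), with -0.02 without control array 1 and -0.26 without control array 2. A second tested probe set had a log2 fold change of 0.09, of the other sign. The remaining one, below the level filter, had signals of 1.96 to 4.00 on the quercetin arrays and 1.49 to 7.97 on the control arrays.

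Of the breakdown genes, Sat1 and Smox had lower means and Paox a higher mean in the quercetin group, and 0 of the 3 passed. Sat1, the acetyltransferase that starts polyamine breakdown and export, had signals of 4168, 4511, 4835 and 5115 on the quercetin arrays, against 8790.3, 5093, 4921 and 5973 on the control arrays. The quercetin arrays lay close together, and control array 1 was far above all others. The means were 4657 ± 409 in the quercetin group and 6194 ± 1791 in the control group (SD, n = 4 each). Sat1 had a log2 fold change of -0.37 (SE 0.172, unadjusted p = 0.0491, limma adjusted p = 0.463), and -0.19 without control array 1. That array was lowest in proliferation markers and highest in absorptive colonocyte markers, and the part of either was not tested.

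Smox, spermine oxidase, was dim, with signals of 43.8, 59.1, 65.5 and 48.7 on the quercetin arrays, against 90.5, 75.5, 96.9 and 51.6 on the control arrays. Of the control arrays 3 lay above all quercetin arrays, and control array 4 lay among them. Its log2 fold change, -0.41 (SE 0.240, limma adjusted p = 0.577), had the largest size among the 10 genes. It was -0.57 without control array 4 and -0.32 without control array 3. Adding 16 to the signal understates changes at this level, and with 1 added instead the value was -0.50. Paox, the oxidase of acetylated polyamines, had 148, 187, 136 and 116 on the quercetin arrays and 93.0, 150.3, 178 and 116 on the control arrays. The groups covered nearly the same range, and the log2 fold change of Paox was 0.13 (SE 0.219, limma adjusted p = 0.872), or -0.01 without control array 1 and 0.02 without quercetin array 2.

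**Figure D3:**
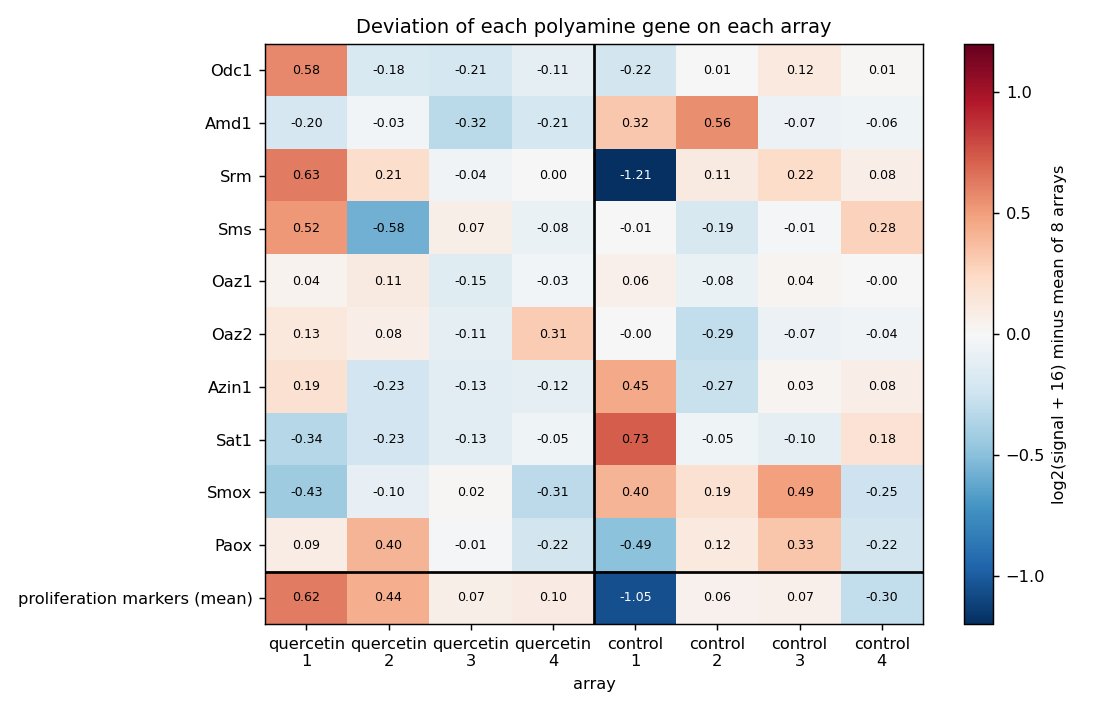
Deviation of log2(signal + 16) from the mean of the 8 arrays for the 10 polyamine genes (rows) on each array (columns), with the mean of 15 proliferation markers in the bottom row. Control array 1 is lowest for Srm (-1.21) and the markers and highest for Sat1 (0.73), and quercetin array 1 is highest for Odc1, Srm and Sms.

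Single arrays stood out across several of these genes. On control array 1 the deviation from the mean of the 8 arrays, on the log2 scale, was -1.21 for Srm, against 0.73 for Sat1 on the same array. On quercetin array 1 Odc1, Srm and Sms were 0.58, 0.63 and 0.52 above the mean. Among the 45 pairs of genes, Srm and Sat1 had the most negative correlation over the 8 arrays (Pearson r = -0.94, Spearman rho = -0.69). Without control array 1 it was -0.67, and without control array 1 and quercetin array 1, the arrays farthest from the median of Srm, it was -0.27, so the strong value rests on those 2. These points share their array scaling and come from both diets, and the correlations are descriptions.

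**Figure D4:**
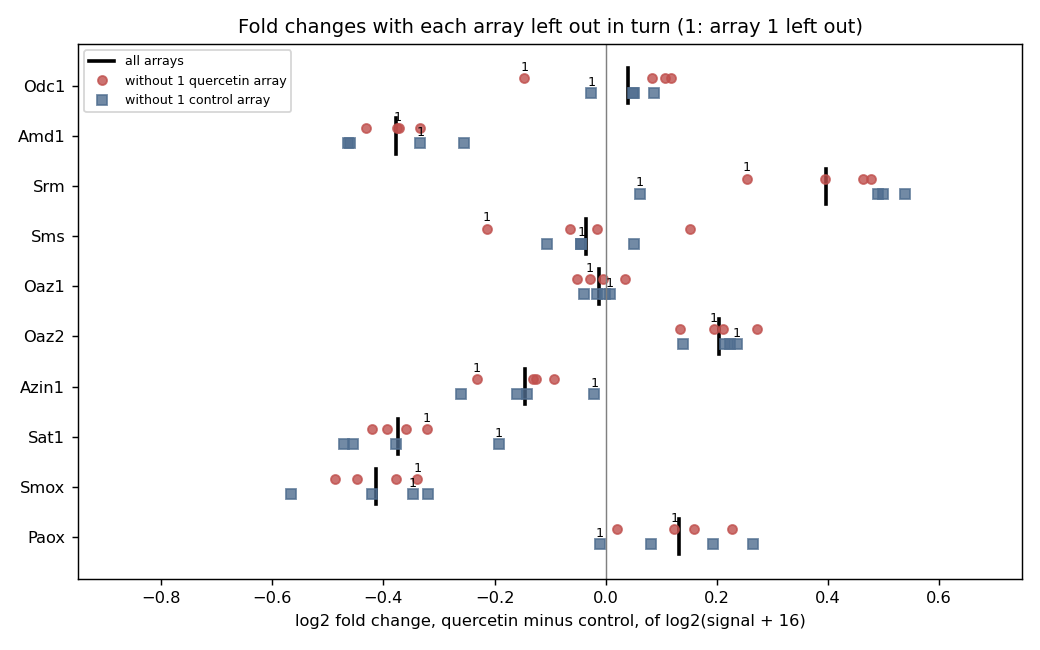
Log2 fold change, quercetin minus control, of log2(signal + 16) for each of the 10 genes with all arrays (black bar) and with each quercetin array (red circles) or control array (blue squares) left out, array 1 being numbered. Srm shifts to 0.06 and Sat1 to -0.19 without control array 1, and Odc1 to -0.15 without quercetin array 1.

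By the same measure, the genes whose pattern was most like that of Odc1 over the 8 arrays, out of 10265 compared, were Hs2st1 (r = 0.95), Gmds (0.95), Eif2b1 (0.95), Serp1 (0.94) and Ctsc (0.94). For Sat1 they were Eps8 (r = 0.99), Pmp22 (0.99), Adck2 (0.98), Pitpna (0.98) and Dnajb1 (0.98). Spearman rho, which weighs an outlying array less, ran from 0.71 (Serp1) to 1 (Gmds) with Odc1. With Sat1 it ran from 0.88 (Pmp22 and Adck2) to 0.98 (Eps8). Picking the highest of so many correlations over 8 arrays yields high values in any data, and these are given as a description.

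Around the core route lie the genes that feed it, move polyamines and use them. In 6 lists of such genes 44 were in the tested range, and 0 passed the adjusted limma threshold. An unadjusted p under 0.05 was reached by 7 of the 44, of which 5 had higher and 2 lower means in the quercetin group, beside 5.04% and 5.71% of all probe sets. Of the 10266 tested genes by their brightest probe set, 622 were higher and 342 lower at that level. The groups did not overlap in 5 of the 44, 4 higher and 1 lower, beside 3.09% and 3.30% of all probe sets. Among the 10266 genes, 387 were higher and 213 lower without overlap. The median log2 fold change of the 44 was 0.13, against 0.01 over all probe sets and 0.04 over the brightest probe set of every tested gene.

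Transport and diamine removal held the largest values. Slc22a3, an organic cation transporter, had signals of 143, 151, 109.8 and 211 on the quercetin arrays, against 46.9, 41.0, 99.6 and 46.1 on the control arrays. Every quercetin array lay above every control array, though control array 3 came close. The log2 fold change of Slc22a3 was 1.22 (SE 0.266, unadjusted p = 0.000516, limma adjusted p = 0.234). Aoc1, diamine oxidase, which breaks down putrescine and histamine, had 1502, 1951, 669.8 and 1019.7 on the quercetin arrays, against 324, 674, 719 and 498 on the control arrays. Quercetin array 3 lay among the controls and the other 3 above them, with a log2 fold change of 1.14 (SE 0.307, unadjusted p = 0.00252, limma adjusted p = 0.279). In the same lists Slc7a7, a carrier of cationic amino acids, had 0.65, Slc12a8 0.49, Aldh9a1, an aldehyde dehydrogenase, 0.22 and Aldh1a1, which makes retinoic acid, -0.18, with limma adjusted p-values from 0.476 to 0.857. Slc7a7 had 0.39 without quercetin array 2, Slc12a8 0.25 without control array 1 and Aldh9a1 0.14 without control array 4, and Aldh1a1 had 0.09 without quercetin array 4.

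In the methionine cycle, which supplies Amd1 with S-adenosylmethionine, 3 of 10 tested genes had an unadjusted p under 0.05, 1 with a higher and 2 with lower means in the quercetin group, beside 5.04% and 5.71% of all probe sets. Ahcy, which clears S-adenosylhomocysteine, had signals of 1486, 1746, 1146 and 1368 on the quercetin arrays, against 859, 855, 1082 and 918 on the control arrays, with no overlap (log2 fold change 0.61, SE 0.149, limma adjusted p = 0.260). Mat2a, the synthase of S-adenosylmethionine, had 3792, 3852, 4480.0 and 3204 on the quercetin arrays, against 7307, 6786, 4494 and 4576 on the control arrays. Its groups were separated by a narrow gap, and control arrays 1 and 2 were the high ones, as they were for Amd1. The log2 fold change of Mat2a was -0.57 (SE 0.176, limma adjusted p = 0.304), or -0.25 without those 2 arrays, and its 2 dimmer probe sets had 0.40 and 0.28. Adi1, of the methionine salvage route, had -0.38 (limma adjusted p = 0.398), and Mtap, which takes up the by-product of spermidine and spermine synthesis, had 0.02, with -0.39 and 0.33 on its dimmer probe sets.

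In the arginine and ornithine list 0 of 7 tested genes had an unadjusted p under 0.05. The log2 fold changes were 0.57 for Oat, which interconverts ornithine and glutamate semialdehyde, and 0.21 and -0.13 for the arginases Arg2 and Arg1, with limma adjusted p-values from 0.570 to 0.875. The signal of Oat was 1578 on quercetin array 1, against 566 to 678 on the other quercetin arrays and 297 to 823 on the control arrays. Without quercetin array 1, Oat had 0.25 and Arg1 -0.02, and without control array 2, Oat had 0.30 and Arg2 0.04. Spermidine is also the substrate for hypusine, a modified lysine of the translation factor eIF5A. Its 3 tested genes had positive log2 fold changes with no unadjusted p under 0.05, of 0.33 for Dhps, 0.26 for Eif5a and 0.15 for Dohh, which had -0.07 without control array 1. Dhps, the enzyme of the first step, had 197, 178, 149 and 152 on the quercetin arrays, against 109, 139, 142 and 136 on the control arrays, without overlap (limma adjusted p = 0.530).

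Of the regulators of Odc1, Mxi1 and Myc had an unadjusted p under 0.05, 2 of 9 tested, beside 10.8% of all probe sets. Both had higher means in the quercetin group, where 5.04% of all probe sets were higher at that level. Myc, the transcription factor that drives Odc1 in growing cells, had signals of 189, 158, 103 and 93.5 on the quercetin arrays, against 21.3, 66.4, 115 and 90.0 on the control arrays. Control array 1 was again lowest, as for Srm and the proliferation markers, whose part here was not tested either. The log2 fold change of Myc was 0.86 (SE 0.354, limma adjusted p = 0.411), and 0.49 without control array 1. Mxi1, a Max partner that opposes Myc, had 1152, 1268, 1099 and 1052 on the quercetin arrays, against 879, 786, 805 and 855 on the control arrays, with no overlap (log2 fold change 0.45, SE 0.122, limma adjusted p = 0.279), and 0.75 on its dimmer probe set. Max, the common partner of both, had -0.36 (limma adjusted p = 0.476), and -0.23 without either quercetin array 2 or control array 1. Odc1 itself stood at 0.04 beside these values.

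**Figure D5:**
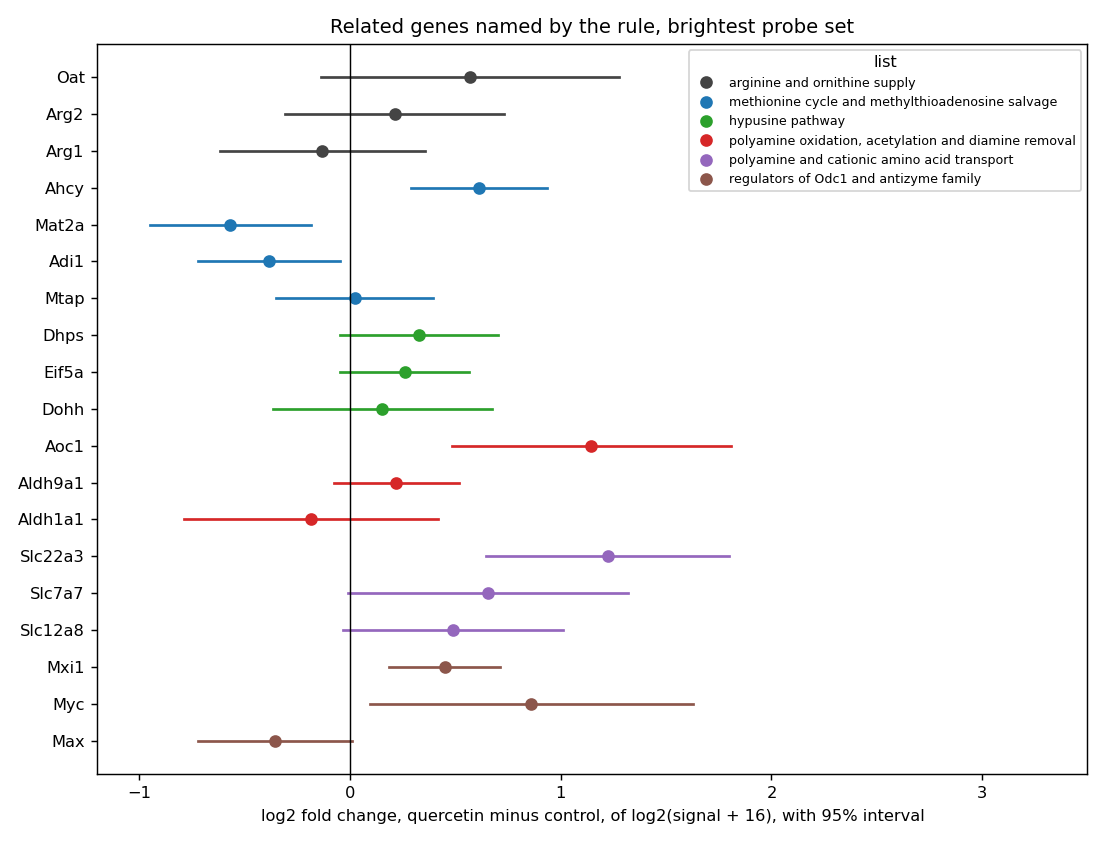
Log2 fold change, quercetin minus control, of log2(signal + 16), with its 95% interval from limma, for 19 genes that feed, move, use or regulate polyamines, coloured by list. Slc22a3 (1.22) and Aoc1 (1.14) lie farthest from 0, and none of the 19 passed after adjustment.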

How the data were processed

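Arrays of 4 quercetin and 4 control samples were grouped by title. The authors deposited linear intensity values, 1 signal per probe set; the submitters' processing notes name MAS5. In the deposited table the mean with 2% trimmed at either end was near 200.1 on every array. That scaling assumes that most transcripts keep their level. No genome build or further step is given in the sources used here.

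After removal of 57 array controls from the 31099 probe sets, the upper 60% by mean log2(signal + 16), a signal of about 29.4 or more, were tested (18625). limma 3.58.1 in R 4.3.3 (lmFit, eBayes with trend, two-sided, Benjamini-Hochberg) compared the diets. On data simulated with independent noise the steps gave back, on average, the changes put in. That checks the code only, since the simulation held no array that shifted many genes together. Precision is limited by having 4 arrays a group: the median SE of a log2 fold change was 0.222. In the platform annotation 20826 probe sets carried a single symbol, 436 more than 1 symbol and 9780 no symbol.

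The 10 genes, the 6 related lists and the 10 marker lists were chosen with earlier results of these data known. All 10 genes are named. From each related list the text names any gene past the threshold, otherwise the 3 with the smallest unadjusted p, and Myc, Arg1, Arg2, Oat, Mtap and Aoc1 in any case. For Odc1 and Sat1, the 5 most correlated genes are named. The 22 alternatives covered the pseudocount (1, 64), quantile normalisation, median centring, the filter (none, upper 40%), array weights, the replicate block, no trend, handling of several probe sets, RNA quality covariates and left-out arrays.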

Additional observations from a re-analysis of the deposited data

Results flagged for a closer look

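Each of 33 probe sets of the genes named above was looked at within each diet for an array that lay apart, which makes 66 sets of 4 values. On the log2(signal + 16) scale, the distance from the outermost array to its neighbour was divided by the whole spread of its group. It was large in 4 of the 66, while about 1 set in 20, here 3.3, would stand out by chance alone. Odc1 was high on quercetin array 1 (0.870) and Srm low on control array 1 (0.899). Among the related genes, Slc22a3 was high on control array 3 (0.861) and Dhps low on control array 1 (0.832).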

How the results depend on the processing

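Under 22 alternatives 0 of the 10 polyamine genes and 0 of the related genes passed the adjusted threshold, and the smallest adjusted p of any polyamine gene was 0.221, for Sat1 with the GAPDH ratio as a covariate. The upper 40% of probe sets did not include Smox. Amd1, Srm, Oaz2, Azin1, Sat1 and Smox kept their sign throughout. Odc1 turned to -0.0506 with array weights, -0.0458 without control arrays 1 and 2, -0.15 without quercetin array 1 and -0.03 without control array 1. With each array left out in turn Odc1 ranged from -0.15 to 0.12, Sms from -0.21 to 0.15, Oaz1 from -0.0508 to 0.0345 and Paox from -0.0103 to 0.27. Median centring turned Sms to 0.0141 and Oaz1 to 0.0377, and quantile normalisation Oaz1 to 0.0392. With the beta-actin ratio as a covariate, Srm had 0.73, Sat1 -0.60, Azin1 -0.45 and Oaz2 0.03. That ratio was higher on control arrays 2, 3 and 4 than on every quercetin array, so this fit cannot fully separate it from diet.

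Among the related genes Arg2 turned to -0.19 with the beta-actin covariate. Mtap, at 0.02, turned to -0.00310 with array weights, -0.0125 with its probe sets averaged and -0.0189 without control arrays 1 and 2, and ranged from -0.0557 to 0.14 with each array left out. The same ranges were -0.0742 to 0.38 for Dohh and -0.39 to 0.0947 for Aldh1a1.

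Over all probe sets, 2 passed with the chosen settings. The count was 3 with a pseudocount of 64. It was 1 with a pseudocount of 1, quantile normalisation, median centring, no filter, the replicate block, no trend, probe sets averaged by gene or the brightest probe set of each gene. It was 0 without control arrays 1 and 2 and with the beta-actin covariate, and 1 to 2 with each array left out (1 without control array 1, 2 or 3 or quercetin array 2 or 4). The unadjusted p was under 0.05 in 12 of 22 alternatives for Amd1 and in 9 of 22 for Sat1, and in neither without control array 1. The labels do not say that replicate numbers pair the samples. The correlations of same-numbered deviations ran from -0.15 to 0.16, and those of unlike numbers from -0.20 to 0.17. So few values can neither show nor exclude pairing. With the block no polyamine gene passed the adjusted threshold, as without it. The unadjusted p of Sat1 was 0.0588 in the limma fit with the block, against 0.0491 without it. For Amd1 the unadjusted limma p went the other way, to 0.0179 with the block from 0.0305 without it. Signal over background was not measured here, and among the 10 genes the SE was largest for Srm (0.297).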

Other observations

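The probe sets of 4 relatives of the genes named above were dim on these arrays and lay below the level filter. A dim probe set need not mean a dim gene, since Azin1 had both a dim and a bright probe set. Oaz3, an antizyme known from the testis, had a mean signal of 25.7 ± 16.1 in the quercetin group and 17.6 ± 14.3 in the control group (SD, n = 4 each). Azin2, the second antizyme inhibitor, had 36.2 ± 8.11 in the quercetin group and 25.0 ± 14.2 in the control group. Sat2, a relative of Sat1, had 18.6 ± 9.36 in the quercetin group and 21.1 ± 13.5 in the control group. Eif5a2, the second eIF5A gene, had 15.1 ± 15.3 in the quercetin group and 14.7 ± 17.8 in the control group. In each of these 4 genes, named here after their values were seen, the spread within the groups was larger than the difference of the means or close to it.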
